A study of Mus musculus with 12 samples.

Results

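Baseline microRNA (miRNA) levels were described in BC3H1 cells that respond to rapamycin and had received only its solvent, DMSO, for 24 h. BC3H1 is an ATCC mouse line from a brain tumour with myogenic (muscle-like) properties, and the cells were grown in DMEM with 20% FBS. These samples, labelled RS_DMSO, fill 4 of the 12 arrays of the series, and they were chosen by that label alone. The other 8 arrays, with the RS_Rap samples (the same cells, rapamycin at 100 nM for 24 h) and the RR_Rap samples (the resistant line RR1, kept for 6 months in 1 µM rapamycin), entered no comparison here. Nothing in the labels says that the 4 RS_DMSO samples came from separate cultures, so the spread between arrays may be technical. Total RNA was labelled with the dye Hy3 and read on Exiqon miRCURY LNA arrays, on which short modified DNA probes capture mature miRNAs. Each array carried 417 probes for mouse miRNAs under 414 names, and 7 negative-control probes, each printed as 4 spots. The level of a probe is its Hy3 intensity minus the local background, in scanner intensity units, with no scaling between arrays. Probes bind their targets unequally, so the order below is an order of signal and not of copy number: the 2 probes named miR-298 had median levels of 1784 and 47.5. Levels of different miRNAs are therefore set side by side with no fold between them.

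A miRNA is a short RNA cut from a hairpin, which guides a silencing complex to messenger RNAs, mainly through its seed, bases 2 to 8. Hairpins that lie close together are often cut from 1 long transcript, and usually 1 strand of a hairpin is kept while the other is degraded. In muscle, miR-1, miR-133 and miR-206 are induced as myoblasts differentiate, and miR-143 and miR-145 are characteristic of smooth muscle. The let-7 family is low in stem cells and high in most differentiated cells.

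The brightest probes spanned several seeds. The mature sequences of the highest-ranked miRNAs with an entry in RefSeq (build GRCm38.p6), other than the let-7 family, are shown first because they account for much of the signal; capitals mark the seed.
miR-690: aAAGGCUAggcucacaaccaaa
miR-23a: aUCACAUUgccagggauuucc
miR-668: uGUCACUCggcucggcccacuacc
miR-22: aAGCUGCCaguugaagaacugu
miR-21: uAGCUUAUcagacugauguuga
miR-29a: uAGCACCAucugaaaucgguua
miR-24: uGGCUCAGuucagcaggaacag
miR-125b-5p: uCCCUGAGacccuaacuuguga
miR-16: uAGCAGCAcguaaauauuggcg
miR-711: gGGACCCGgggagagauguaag

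The let-7 family is shown whole because its 9 members share the seed GAGGUAG and differ by few bases, and their probes fell on both sides of the border of the calls. Positions below are counted from 1 at the 5′ end, with the let-7a base first.
let-7a: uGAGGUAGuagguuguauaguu
let-7c: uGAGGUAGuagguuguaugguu
let-7b: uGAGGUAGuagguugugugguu
let-7d: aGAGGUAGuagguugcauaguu
let-7i: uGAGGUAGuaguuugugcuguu
miR-98: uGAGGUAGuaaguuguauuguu
let-7e: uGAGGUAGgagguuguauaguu
let-7f: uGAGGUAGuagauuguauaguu
let-7g: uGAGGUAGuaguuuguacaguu

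Most of the miRNA signal of the cells came from a small group of probes. The brightest mouse probe took between 15.5% and 16.6% of the summed mouse signal of an array, the 5 brightest took 30.9% to 34.9%, and the 25 brightest took 52.3% to 66.5%. Median levels over the 4 arrays ran from 34.7 to 22570 intensity units, with a median over all mouse probes of 89.5. The highest negative control of each array, the background used here, stood at 103, 83.1, 145 and 83.2 on RS_DMSO 1 to 4, so a typical mouse probe was no brighter than background. Of the 417 mouse probes, 110 (26.4%) exceeded every negative control on 4 of 4 arrays, 156 on 1 to 3 arrays, and 151 on none. The mean over arrays of the log2 level over the highest control was then tested against 0 with limma, two-sided, at a Benjamini-Hochberg adjusted p of 0.05 over all mouse probes. By that test 104 probes (24.9%) were called higher than the highest control, 100 (24.0%) lower, and 213 (51.1%) were not called. A probe called lower is dimmer than the brightest of the 7 controls, which is the background used here. It can still lie above the other controls, so the call does not show that its miRNA is absent. Of the 104 probes called higher, 24 were at least 10-fold and 76 at least 2-fold above that control. The fit pooled the spread completely, so every probe has the same standard error, 0.25 on the log2 scale, and as the highest control is shared by all probes of an array, the calls are not independent.

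**Figure D1:**
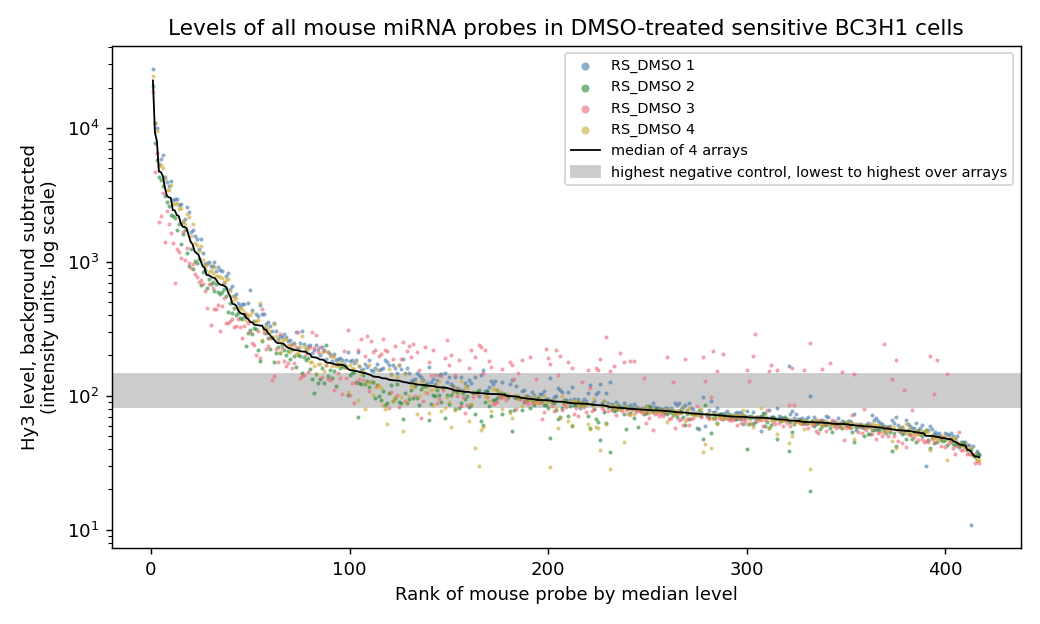
Hy3 level of all 417 mouse probes (log scale, background-subtracted intensity units) against the rank of their median over the 4 RS_DMSO arrays. Points are single arrays, the line is the median, and the grey band runs from the lowest to the highest value of the highest negative control over the arrays, 83.1 to 145; the curve falls steeply over the first ranks and enters the band near rank 110, and the raised points of RS_DMSO 3 across the dim ranks are described in the text.

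RS_DMSO 3 stood apart from the other arrays. Its log2 levels correlated with those of the others at r = 0.842 to 0.908 across mouse probes, against 0.969 to 0.987 among RS_DMSO 1, 2 and 4, and its array weight in limma was 0.0712, against 1.10 to 5.07. It departed in opposite directions for bright and dim probes. Of the 25 brightest probes, RS_DMSO 3 was the lowest array for 19, namely 12 of 15 in columns 1 to 24 of the slide and 7 of 10 in columns 25 to 68, so low bright probes were found in both regions. The raised dim probes lay almost all in 1 region. The 4 spots of every probe sit in a single one of 68 columns, and columns 1 to 24 held 140 mouse probes and 2 of the 7 negative controls. Of 63 mouse probes that were over 1.5 times brighter on RS_DMSO 3 than on any other array, 59 lay in those columns. Among mouse probes not called higher, the median level in columns 1 to 24 was 111, 71.0, 185 and 68.2 on RS_DMSO 1 to 4, and in columns 25 to 68 it was 74.9, 70.4, 67.7 and 72.5. Dim probes of these columns were thus raised on RS_DMSO 3, and less so on RS_DMSO 1, whereas both regions were alike on RS_DMSO 2 and 4. The 2 controls there, negative controls 2 and 6, reached 145 and 138 on RS_DMSO 3 and set the highest control of that array. Calls were made for 46 probes as higher in columns 1 to 24 (32.9% of 140) and for 58 in columns 25 to 68 (20.9% of 277), and for 8 and 92 probes as lower. Without RS_DMSO 3, 137 probes were called higher and 141 lower; without its columns 1 to 24 alone, 147 and 139. Comparing each probe with the highest control of its own columns gave 177 higher and 121 lower. The 25 brightest probes were called higher in each of these fits, but they stand so far above the controls that this does not measure an effect of slide position on their levels.

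**Figure D2:**
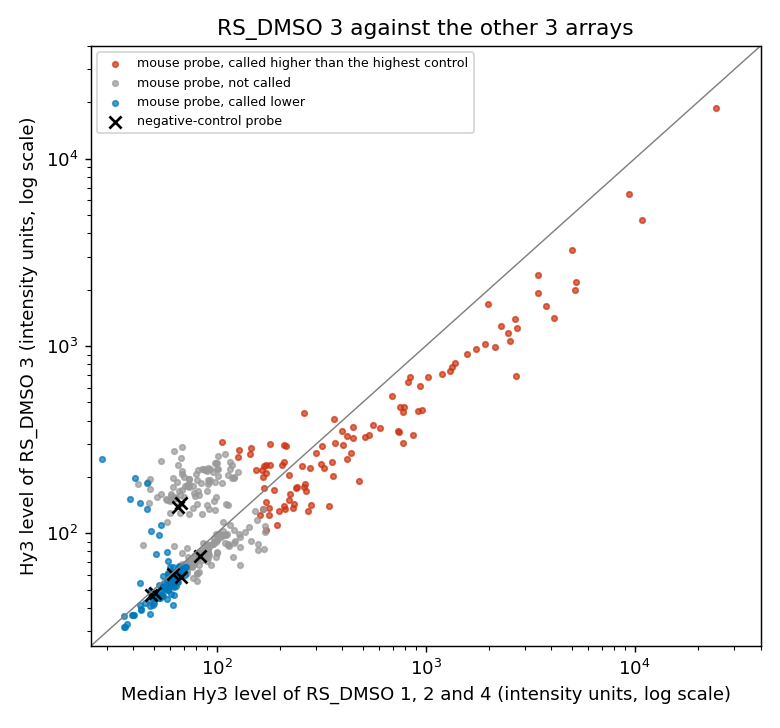
Hy3 level on RS_DMSO 3 against the median level of RS_DMSO 1, 2 and 4 (both log scales, intensity units), with the line of equality. Dots are the 417 mouse probes by call and crosses are the 7 negative controls; a cloud of dim probes and 2 controls, at 138 and 145 on RS_DMSO 3, lies above the line, and bright probes lie below it.

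The brightest probe was miR-709. It had 27615, 20561, 18599.8 and 24580.0 intensity units on RS_DMSO 1 to 4 and ranked first on each, with a mean of 22839 ± 4041 (SD, n = 4). It was followed by let-7a, with 10931, 7656, 4699.9 and 10816, and miR-690, with 9955, 5779.7, 6507 and 9429. let-7a was the brighter of the pair on 3 of 4 arrays, so these ranks are not separated, whereas miR-709 lay above both on every array.

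Next in order came let-7c, miR-23a and miR-668, with medians of 4724, 4672 and 4375. miR-23a, from the hairpin cluster with miR-27a and miR-24, had 5877, 4093, 2195 and 5250.4. miR-668, one of the many miRNAs of the imprinted Dlk1-Dio3 region, had 6231, 3709, 3249 and 5041. Their order changed between arrays: miR-23a was brighter than miR-668 on 2 of 4. miR-22, a miRNA abundant in heart and skeletal muscle, had 4315, 3079, 1409.8 and 4121, with RS_DMSO 3 lowest. miR-21, which is high in many growing and tumour cells, had 3971, 2777, 2384 and 3465, and its arrays spread less, with a coefficient of variation of 22.4%, against 41.2% for miR-22. miR-29a, known for repressing collagens and other matrix genes, had 3689.9, 2590.4, 1919 and 3463, and miR-24 had 4004, 2256, 1638 and 3751. Their medians of 3027 and 3004 differed by less than the spread between arrays. In both, RS_DMSO 3 was again the lowest array.

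**Figure D3:**
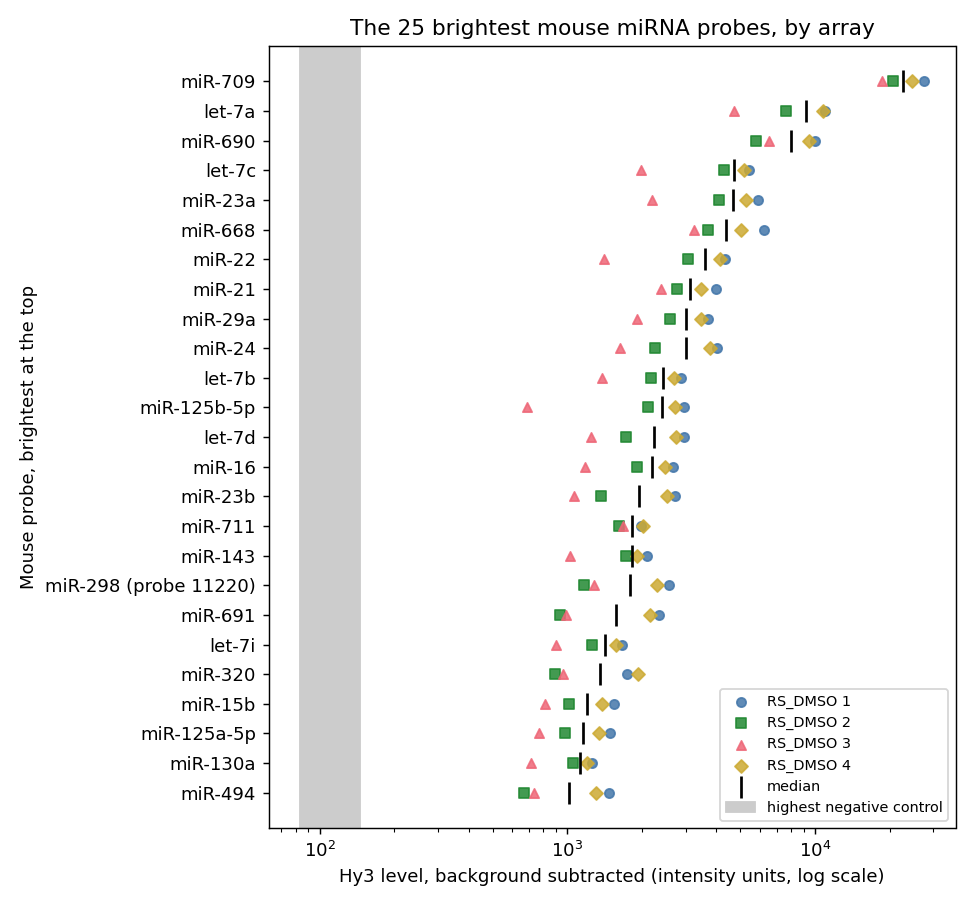
Hy3 level (log scale, background-subtracted intensity units) of the 25 brightest mouse probes on each of the 4 RS_DMSO arrays, with the median as a bar and the range of the highest negative control, 83.1 to 145, in grey. All points lie to the right of the grey band, and RS_DMSO 3 is often the lowest array, most clearly for miR-125b-5p.

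The remaining ranks to 25 held more members of these families and several miRNAs of other seeds. miR-125b-5p, a relative of the worm miRNA lin-4, had 2959, 2122, 689.6 and 2719. Its level on RS_DMSO 3 was the lowest of the 4, and its coefficient of variation, 48.0%, was the highest of the 25. miR-125a-5p, with the same seed, had 1490.2, 977, 769 and 1343 and was dimmer than miR-125b-5p on 3 of 4 arrays, RS_DMSO 3 being the exception. miR-16 and miR-15b, whose family represses cell-cycle genes such as cyclins, had medians of 2196 and 1198. miR-16 was the brighter on 4 of 4 arrays. miR-711 had 1977, 1612, 1679 and 2028, and its coefficient of variation of 11.5% was the lowest among the 25. miR-143 had a median of 1817, miR-130a 1125, miR-320 1349.9, miR-23b 1947, miR-691 1571 and miR-494 1019.7. miR-320 is known to be made without the enzyme Drosha, which cuts most miRNA hairpins. The brighter miR-298 probe, with 2568, 1164, 1277 and 2291, also fell in this range, but its second probe had 50.9, 47.7, 44.1 and 47.4 and was called lower, so the name has no settled level.

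Neighbouring ranks were seldom separated. Of the 25 pairs of neighbours from rank 1 to rank 26, the order was the same on 4 of 4 arrays in 7 and turned on at least 1 array in 18. None of the 25 had a saturated spot that would hide its true level. The same probes were also bright in the Hy5 channel, which carried a pool that the labels describe as RNA of all 3 conditions: 22 of the 25 were among its 25 brightest. That pool contains the DMSO-treated cells, so both channels share RNA and probes.

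In the let-7 family, 7 of 9 members were called higher (77.8%, against 24.9% of all mouse probes). Median levels were 9236 for let-7a, 4724 for let-7c, 2435 for let-7b, 2232 for let-7d and 1413 for let-7i, all among the 25 brightest. Below them came miR-98 at 263 and let-7e at 214, both called higher, and then let-7f at 129.7 and let-7g at 75.1, neither of which was called. let-7a exceeded each of the other 8 on 4 of 4 arrays. let-7c differs from let-7a by A19G, let-7e by U9G and let-7f by G12A. let-7f had 169, 90.7, 82.9 and 171 on the 4 arrays, above the highest control on 3 of them, and was not called. Both let-7a and let-7f lie outside the raised columns of the slide. let-7g, which carries G12U and U18C, had 82.2, 69.6, 61.0 and 80.6. Whether the cells hold less let-7f and let-7g or their probes bind less well cannot be told apart from these data. Whether a probe also binds close relatives of its target was not tested, here or in the families below. A call for a member may therefore hold signal of another member. The 3 hairpins of let-7a, let-7f and let-7d lie together at chr13:48536078-48538260 (GRCm38.p6, minus strand). let-7d, which differs from let-7a by U1A and U16C, had 2959, 1729, 1242 and 2735, so both outer members of that cluster were bright and the member between them was not called. let-7f has a second gene beside miR-98 on chromosome X. Without RS_DMSO 3, 8 of the 9 members were called higher. With each probe's own spread in place of the pooled one, a stricter limma fit that called 67 of all 417 mouse probes higher, 5 of the 9 were.

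The muscle lists gave a mixed picture. Of the skeletal and cardiac muscle markers, 2 of 7 (28.6%) were called higher, a share near the 24.9% of all mouse probes. Another 2 were called lower, where 24.0% of all mouse probes were. miR-206, which is nearly restricted to skeletal muscle, had 268, 232, 178 and 262 and lay above the highest control on 4 of 4 arrays, with a log2 level over that control of 1.20 ± 0.25 (SE; limma adjusted p = 1.43e-05). miR-1, the most abundant miRNA of heart and skeletal muscle, had 242, 194, 143 and 234 and exceeded the highest control on 3 arrays, with a log2 level of 0.98 over it (limma adjusted p = 0.000513). These 2 levels are modest: the median of miR-206 ranked 64 and that of miR-1 ranked 77. miR-133a and miR-133b, which in muscle are made from the same transcripts as miR-1 and miR-206, had medians of 53.8 and 61.3 and were called lower than the highest control. The hairpins of miR-206 and miR-133b lie at chr1:20679055-20682855 (GRCm38.p6, plus strand), with miR-206 called higher and miR-133b called lower. miR-208 and miR-499, which lie in introns of myosin heavy chain genes, were at 87.7 and 79.8 and were not called. miR-486 had 68, 63.7, 288 and 69.7. It was raised on RS_DMSO 3 alone, where its column lies in the raised region, and was not called. All members but miR-486 sit outside columns 1 to 24. With each probe's own spread in place of the pooled one, 0 of the 7 were called higher after adjustment and 1 at an unadjusted p under 0.05, and the adjusted p of miR-206 was 0.0914 and that of miR-1 0.137 in that limma fit.

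Of the smooth muscle markers, the probe of miR-143 was called higher and that of miR-145 was not called. miR-143 had 2101, 1717, 1029 and 1916, and miR-145 had 106, 80.5, 78.8 and 99.9. Both are known to come from 1 transcript, and whether the cells hold less miR-145 or its probe binds less well cannot be told apart. miR-145 exceeded the highest control on 2 of 4 arrays and was not called, with a log2 level of -0.16 over that control (limma adjusted p = 0.638). Of the miRNAs that mark muscle, miR-143, miR-206 and miR-1 were thus called higher than the highest control. miR-133a, miR-133b, miR-145, miR-208, miR-486 and miR-499 were not. These calls depend on the background. Against the median control, 4 of 7 skeletal and cardiac probes were called higher and 1 lower. Both smooth muscle probes, miR-145 included, were called higher in that setting. Its count over all mouse probes stands with the markers of other cell types below. In bulk RNA, fewer cells with a miRNA and less of it per cell cannot be told apart.

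Among markers of other cell types, the neuron list did not stand apart from all mouse probes. Of its 15 probes, 3 were called higher (20%, against 24.9% of all mouse probes) and 6 lower (all mouse probes, 24.0%). The 3 were miR-212 with 393, 220.5, 305 and 368, miR-129-5p with 225, 124, 211 and 171 and miR-7a with 191, 162, 136 and 179. The defining neuronal miRNAs miR-124 and miR-9 were at 69.7 and 87.2 and were not called, and miR-9*, miR-132, miR-138, miR-153, miR-219 and miR-7b were called lower. miR-212 and miR-132 are neighbours at chr11:75173443-75173744 (GRCm38.p6, plus strand) with the same seed, and their medians were 337 and 54.7. miR-212 and miR-129-5p lie in columns 1 to 24, but their levels on RS_DMSO 2 and 4 were also above the highest controls there.

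Blood, endothelial, epithelial, liver and pancreas, and embryonic stem cell markers had 33 probes together. Of these, 1 was called higher (3.03%, against 24.9% of all mouse probes) and 13 lower (39.4%, against 24.0%). The one called higher was miR-155, a miRNA of activated immune cells that many tumour lines also express, with 486, 375, 269.8 and 441. Of the blood list, miR-142-5p, miR-144 and miR-451 were called lower and miR-142-3p, miR-150 and miR-223 were not called. miR-150 did exceed the highest control on 4 of 4 arrays. Both endothelial probes, of miR-126, were at 78.7 for the 5p and 67.6 for the 3p arm. All 7 epithelial probes had medians between 59.2 and 85.3. Of the 10 embryonic stem cell probes, from the miR-290 and miR-302 clusters, 4 were called lower. The brightest, miR-302a and miR-294, had medians of 148 and 124. Both of those probes lie in the raised columns, and miR-294 exceeded the highest control on 4 of 4 arrays without being called. The count of 1 among 33 depends on the background: it was 4 without RS_DMSO 3 (2 blood and 2 stem cell probes), 6 against controls of the same columns, 13 against the median control and 0 with each probe's own spread. The same settings called 137, 177, 241 and 67 of all 417 mouse probes. Of the neuron list, 4 were called higher and 8 lower without RS_DMSO 3. The median of liver miR-122 was 73.5.

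**Figure D4:**
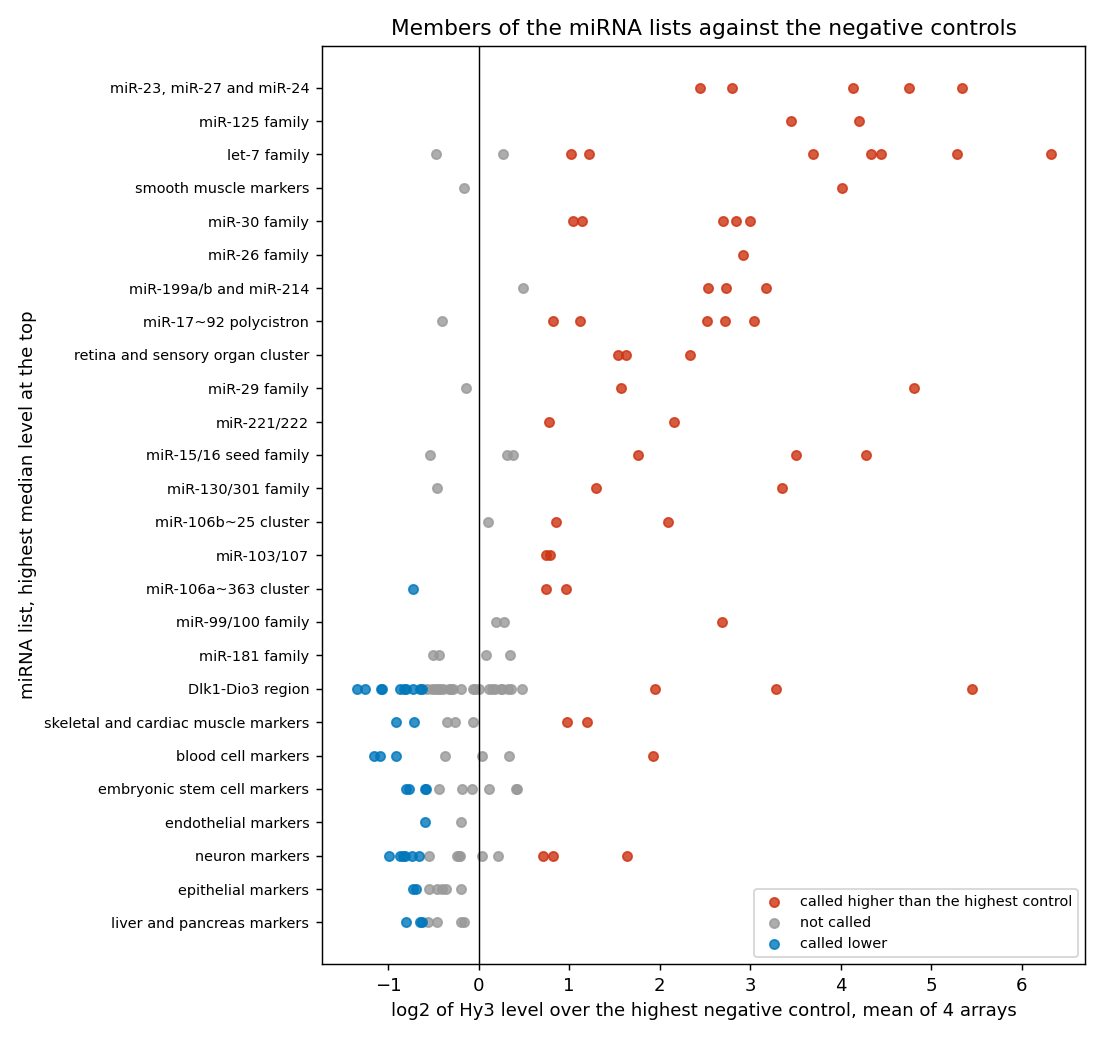
Mean log2 of the Hy3 level over the highest negative control of the array for each member of the 26 miRNA lists, ordered by the median level of the list. The vertical line marks the highest control; red dots were called higher, grey dots not called and blue dots lower, and most members of the marker lists of other cell types, at the bottom, lie around or left of the line.

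Several families and polycistrons had most or all of their members called higher, where 24.9% of all mouse probes were. Of the 26 lists, 7 had every member called higher, and 5, with 30 probes, had none. At an unadjusted p under 0.05 in limma those 30 had 0, and with each probe's own spread 1. The count depends on the background. Against the median control, 2 of 4 miR-181 probes, 5 of 10 stem cell, 2 of 7 epithelial and 2 of 7 liver and pancreas probes were called higher. The 2 endothelial probes had 0. Against controls of the same columns, 1 miR-181 and 3 stem cell probes were called higher, and 0 in the other lists. All 5 probes of the miR-23, miR-27 and miR-24 list were called higher (4 of 5 with each probe's own spread), with a list median of 1947. The hairpins of miR-23a, miR-27a and miR-24 lie at chr8:84208563-84208896 (GRCm38.p6, plus strand), where miR-27a was dimmest with 832, 424, 349 and 742. Of the miR-17-92 polycistron, a Myc-induced cluster on chromosome 14, 5 of 6 members were called higher. miR-19b had a median of 902, miR-17 729, miR-20a 647, miR-19a 219 and miR-18a 169. The exception was miR-92a, with 79.4, 76.0, 71.2 and 78.6, which lay below the highest control on 4 of 4 arrays. The seed AUUGCAC, which miR-92a shares with miR-25, miR-32, miR-367, miR-363 and miR-92b, had 0 of 6 members called higher with limma, also 0 at an unadjusted p under 0.05 with or without limma's pooling of the spread, and 2 called lower. By contrast, the seed AAAGUGC of miR-17, miR-20a, miR-106b, miR-20b, miR-93 and miR-106a had 6 of 6 members called higher, with medians from 177 to 729. These members can differ by 1 base, as miR-106a does from miR-17 by U10A, and binding of a probe to relatives was not tested. The 6 members come from 3 paralogous clusters on different chromosomes. With each probe's own spread, 5 of 6 were called higher in the miR-17-92 list. It was 1 of 3 for miR-106b, miR-93 and miR-25, and 1 of 3 for miR-106a, miR-20b and miR-363. Against the median control, 6 of 6 of the miR-17-92 list and 3 of 3 of the miR-106b list were called higher, with miR-92a and miR-25 among them. The contrast of the 2 seeds thus depends on the background.

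These seed groups are shown side by side because miR-17 and miR-20a, called higher, come from the same transcript as miR-92a, which was not called, and likewise miR-106b and miR-93 from that of miR-25.
miR-17: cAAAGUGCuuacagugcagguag
miR-20a: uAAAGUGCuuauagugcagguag
miR-106b: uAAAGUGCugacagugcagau
miR-93: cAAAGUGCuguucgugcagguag
miR-92a: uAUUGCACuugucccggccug
miR-25: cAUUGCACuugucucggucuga

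All 5 probes of the miR-30 family, which is high in differentiated tissues, were called higher, but 2 of 5 with each probe's own spread. Medians were 799 for miR-30b, 794 for miR-30a, 781 for miR-30c, 234 for miR-30e and 213 for miR-30d. The first 3 did not keep their order over the arrays. miR-26a had 925, 702, 642 and 823, and a companion probe named miR-26a_MM1 had 438, 288, 249.5 and 420.5, lower on 4 of 4 arrays. The files do not say how that probe differs, and its signal was itself called higher than the negative controls. miR-103 and miR-107, which lie in introns of pantothenate kinase genes, had medians of 185 and 175. miR-221 and miR-222, which repress the cell-cycle inhibitor p27, had 194 and 469.6, both called higher but 1 of 2 with each probe's own spread. The list of miR-96, miR-182 and miR-183, a cluster known from sensory organs, had 3 of 3 members called higher, or 1 of 3 with each probe's own spread. Their medians were 311, 550.1 and 338. They lie together at chr6:30165962-30169732 (GRCm38.p6, minus strand).

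In other families members were called higher beside members that were not. miR-29a and miR-29b, with medians of 3027 and 334, were called higher. miR-29c, which differs from miR-29a by C10U, had 108, 85.9, 75.1 and 99.8 and was not called. With each probe's own spread 1 of the 3 was called higher. In the miR-15/16 seed group, miR-16, miR-15b and miR-15a (380.1) were called higher, and miR-195, miR-322 and miR-497 were not. miR-195 had 212, 69.1, 219.6 and 92.8, high on RS_DMSO 1 and 3 only, and its column is in the raised region. miR-130a and miR-301a, at 1125 and 246, were called higher, and miR-130b, which differs from miR-130a by U11A and A13G, was at 73.8 and was not called. miR-99b was at 672, whereas miR-100 and miR-99a were at 132 and 109 and were not called. miR-100 and miR-99a each exceeded the highest control on 3 of 4 arrays. The 4 members of the miR-181 family had medians from 71.5 to 135 and none was called. In the mesenchymal miR-199a and miR-214 list, 3 of 4 were called higher, and 2 of 4 with each probe's own spread: miR-214 at 932, the probe shared by miR-199a-3p and miR-199b at 691 and miR-199a-5p at 674. The family members are shown to set the small sequence differences beside these levels.
miR-29c: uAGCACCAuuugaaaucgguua
miR-29b: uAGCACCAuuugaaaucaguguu
miR-130a: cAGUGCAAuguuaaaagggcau
miR-130b: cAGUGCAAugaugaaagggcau
miR-15b: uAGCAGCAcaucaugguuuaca
miR-15a: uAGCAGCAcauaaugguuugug
miR-195: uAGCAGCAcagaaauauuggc
miR-497: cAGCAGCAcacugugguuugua

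In the Dlk1-Dio3 region, an imprinted domain with a large cluster of miRNAs, few probes were called higher than the highest control. Of 34 probes on the list, 3 were called higher (8.82%, against 24.9% of all mouse probes). Another 10 were called lower, where 24.0% of all mouse probes were. The 3 were miR-668, miR-494 with 1473, 669.9, 731 and 1308, and miR-667 with 620.2, 309.8, 298 and 401. The list does not hold every probe of the region. Outside it, miR-433*, from the hairpin of the listed miR-433, was called higher, and others such as miR-380-5p were called lower. The list median was 80.9. By plain count, 8 of the 34 exceeded every negative control on 4 of 4 arrays, where 26.4% of all mouse probes did. The count called higher was 4 without RS_DMSO 3, 6 with array weights, 10 against controls of the same columns, 14 against the median control and 2 with each probe's own spread, so the share of the region above background depends on the control used. Counts over all mouse probes for these settings, other than array weights, stand with the markers of other cell types above. One run of 18 probes of the region lies at chr12:109709065-109743784 (GRCm38.p6, plus strand). Of the next members, miR-487b had 162, 97.1, 219 and 115, with RS_DMSO 3 highest. Across the array, hairpins within 10 kb of each other formed 41 groups with at least 2 probes of different hairpins, a hairpin sequence with several genes being counted in each. In 25 of them a member was called higher. Every member was called higher in 10 of the 25, and in 7 another probe of the group was called lower. In the group of miR-298 and miR-296-5p, the probe called lower was the second one of miR-298 itself. Over all mouse probes 24.9% were called higher and 24.0% lower, and the groups held up to 18 probes. Whether neighbouring hairpins differ from unrelated probes was not tested.

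Probes for both strands of a hairpin often differed in signal. Whether the strands differ in amount or their probes in binding cannot be told apart. Starred names mark the strand thought at the time of design to be the minor one. Of 48 hairpins with both a plain and a starred probe, the plain strand was brighter on 4 of 4 arrays in 33 and the starred one in 6. Plain strands were called higher in 24 of the 48 and starred strands in 2, and none of these 48 pairs had both. Another 23 pairs were named by their 5p and 3p arms. Among those, miR-125b-5p and miR-125b-3p were both called higher, with medians of 2420 and 159. The miR-125b-3p probe lies in the raised columns of the slide. miR-22 had a median of 3600.2 and miR-22* of 116. Of all 58 starred probes, 4 (6.90%) were called higher, against 24.9% of all mouse probes, and none was among the 25 brightest. In the opposite direction, miR-433* had 241, 146, 284 and 146 and miR-433 had 59.7, 54.3, 242 and 52.9, and miR-467b* had 201, 133, 232 and 172 and miR-467b had 111, 89.7, 91.6 and 100.4. Of the 6 pairs with a brighter starred strand, 4 had the starred probe in columns 1 to 24, 3 of them with the plain probe outside, and the part of the slide in these pairs was not tested.

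**Figure D5:**
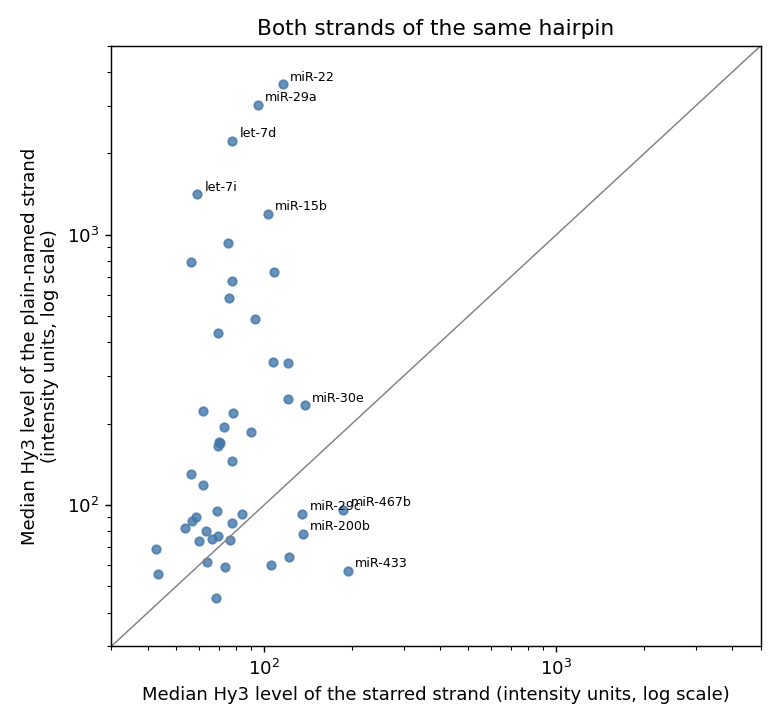
Median Hy3 level of the plain-named strand against that of the starred strand of the same hairpin, for 48 hairpins (both log scales, intensity units), with the line of equality. Each dot is 1 hairpin; the starred strands stay below 200 while plain strands reach 3600.2 (miR-22), and miR-433 and miR-467b lie below the line.

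Mouse miRNAs numbered from miR-680 to miR-721 included 4 of the 25 brightest probes: miR-709, miR-690, miR-711 and miR-691. Of 44 such probes 7 (15.9%) were called higher, against 24.9% of all mouse probes. Another 13 were called lower, where 24.0% of all mouse probes were. The median of the series was 80.2, near the 89.5 of all mouse probes. No role is given here for the 4 bright ones.

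At the border of the calls, the probes just above were miR-324-5p, miR-470, miR-361, miR-207 and miR-365, and those just below were miR-351, miR-186, miR-452, miR-710 and miR-199b*. miR-365 had 186, 127, 126 and 179 and a log2 level of 0.59 over the highest control (limma adjusted p = 0.0438), and miR-351 had 166, 124, 134 and 168 and 0.54 (limma adjusted p = 0.066). The lowest fold called higher was 1.51 and the highest not called was 1.46, so levels beside the border do not differ beyond their error. At the other end, the 5 dimmest probes were miR-568 at 38.4, miR-675-3p at 36.1, miR-34b-5p at 35.3, miR-874 at 35.2 and miR-761 at 34.7. All 5 lay below the lowest negative control by median, which ranged from 46.1 to 49.0 over the arrays. miR-675-3p shares its hairpin with miR-675-5p, which was called higher with 332, 223, 268 and 300.2. miR-761 shares the seed CAGCAGG with miR-214 (median 932).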

How the data were processed

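The deposited intensity values came from Agilent Feature Extraction (9.5.3.1, per the submitters' processing notes), and per the file headers they are the mean pixel of each spot and the median of its local background in the Hy3 channel, from a 5 µm scan, not normalized. No sample column was left unused. The level of a probe was the mean minus the background, and the median was taken over its unflagged spots. Levels were floored at 1 before log2. In limma 3.58.1 (R 4.3.3), lmFit and eBayes tested the mean log2 of the level over the highest negative control of the array against 0, and the method was tested on simulated data. Mature sequences were matched to RefSeq for 275 of the 417 probes, 93 by exact name and 182 through the arm that an older name stands for. The 26 lists and the rule for named probes (the 25 brightest, the 5 on each side of the border, the 5 dimmest, the 4 brightest of each list, all muscle markers and the called members of other marker lists) were chosen with earlier results of these data known. Probes outside that rule were named after their values were seen. The number of arrays limits the precision.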

Additional observations from a re-analysis of the deposited data

Results flagged for a closer look

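Of 115 values checked for 1 array far from the other 3, by Dixon's 95% critical value for 4 samples, 5 passed, and chance gives about 1 in 20. Of these, 3 were high on RS_DMSO 3. miR-486 had 288 on RS_DMSO 3, against 63.7 to 69.7 on the others, miR-25 had 193, against 80.6 to 97.1, and miR-126-5p had 136, against 72.9 to 80.1. The probes of miR-486 and miR-25 lie in column 19 of the slide and that of miR-126-5p in column 27, in and beside the columns that were raised on that array. The other two were on RS_DMSO 1, with miR-568 at 10.8, against 36.7 to 41.7, and miR-675-3p at 42.1, against 36.0 to 36.2.

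Probes outside the mouse set also gave signal. Of 1595 probes not designed for mouse, 154 (9.66%) exceeded every negative control on 4 of 4 arrays, against 26.4% of the mouse probes. Their brightest had a median of 21918, and 17 of them were brighter than the mouse probe at rank 25. Of 14 probes with no known mouse target, 2 exceeded every negative control on 4 of 4 arrays, with medians of 623 and 152. Whether they bind mouse miRNAs of related sequence was not tested.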

How the results depend on the processing

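No paired analysis was possible because 1 group is described, with no second group to pair. The slide as a block was not run, since each array had a slide of its own. The 25 brightest probes were called higher in every setting, and 22 to 25 of them stayed among the 25 brightest. The count called higher, 104, was 53 with the mean plus 3 SD of the control spots as background, 241 with the median control, 57 without background subtraction, 67 with each probe's own spread, and 84 to 137 when 1 array was left out. The count called lower, 100, was 171 with array weights, 264 with the mean plus 3 SD, 32 with the median control, 6 without background subtraction, 15 with each probe's own spread, 44 without the probes that were below the median control on every array, and 50 to 141 when 1 array was left out. The count above every control on 4 arrays, 110, was 172 for at least 3 arrays, 272 with the median control, and 112 to 162 when 1 array was left out. Settings chosen after seeing the data gave 177 higher and, on 4 arrays, 190 against controls of the same columns, 25 lower against the second highest control, and 29 on 4 arrays against the brightest probe with no known mouse target. Among named probes the sign turned only by raising or lowering the background itself: with the mean plus 3 SD the log2 level over it was -0.13 for miR-103, -0.17 for miR-106a, -0.17 for miR-107, -0.095 for miR-129-5p, -0.31 for miR-207, -0.14 for miR-221, -0.25 for miR-324-5p, -0.31 for miR-361, -0.33 for miR-365, -0.26 for miR-470, -0.20 for miR-7a and -0.066 for miR-93, and with the median control it was 0.10 for miR-126-3p. Of 111 named probes, 43 kept their call or lack of one throughout. Background sets these counts, so a dim miRNA is not shown to be absent.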
